A study of Mus musculus with 24 samples.

Results

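Candidate enhancers of normal mouse granulocyte-monocyte progenitors were compared with those of a leukemia catalogue named k+, region by region. Members were all regions of both deposited lists on chromosomes 1 to 19, leaving out chromosome 11 below position 3100000. This kept 12457 of the 12736 regions that the 2 lists hold: 3164 of 3332 in the granulocyte-monocyte progenitor (GMP) list and 9293 of 9404 in the k+ list. Each region was placed by overlap of at least 1 bp with the other list. The classes were 1915 GMP regions without a k+ region, 8134 k+ regions without a GMP region, and 2408 regions that met the other list (1249 GMP and 1159 k+ regions).

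The study profiled chromatin by ChIP-seq in C57BL/6 mouse bone marrow cells. GMP were labelled as such, with no treatment. Leukemia stem cells (LSC) were labelled with the same strain and tissue and no treatment, and the leukemia cells carry MLL-AF10 and were grown in serum with WEHI-conditioned medium, per the labels' protocols. GMP and LSC each had 4 libraries (H3K27ac, H3K4me1, H3K4me3 and input), 1 of each kind, so there is no replicate. The sources used here do not say how the fusion was introduced, how the cells were sorted, how GMP were kept or how many animals were pooled. Leukemia and growth in culture therefore cannot be told apart. The labels do not define k+, and no source used here says that it stands for Kit-positive LSC; the list is therefore called by its own name.

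Enhancers are stretches of DNA, often far from a gene, at which transcription factors gather and raise transcription. H3K4me1 is common at enhancers that are primed or active, H3K27ac at those that are active, and H3K4me3 at promoters. GMP are the bone marrow progenitors that give rise to granulocytes and monocytes. MLL-AF10 joins the DNA-binding part of the histone methyltransferase MLL to AF10, a partner of the H3K79 methyltransferase DOT1L, and transforms myeloid progenitors. Genes are not named beside regions, because an mm9 annotation was not used here, and no sequence is printed, because an mm9 genome was not used here.

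Most regions of each list were without a counterpart in the other. Of the 3164 GMP regions, 60.5% (exact Clopper-Pearson 95% interval 58.8 to 62.2%) had no k+ region, and of the 9293 k+ regions, 87.5% (86.8 to 88.2%) had no GMP region. These intervals take in counting error alone and treat neighbouring regions as independent, which they are not. In base pairs, 38.1% of GMP sequence lay inside k+ regions, and 8.39% of k+ sequence lay inside GMP regions. The k+ list was 2.94 times as long by number of regions and 4.54 times by base pairs (10.3 against 2.26 Mb), so a low share of k+ regions met by GMP is in part set by list length. With only the 3164 widest k+ regions kept, the lists were equal in number, and 76.6% of k+ regions and 73.1% of GMP regions had no partner. None of the k+ regions kept was narrower than 1200 bp, so the lists stayed unequal in width. Neither list holds read counts, and the sequencing depth behind any call is unknown. Both lists carry the word short in their names, which the sources used here do not explain. The lists may therefore be partial, and a region without a partner is one without a partner in the list.

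Regions that met the other list had the larger median width in both lists. Among GMP regions the median width was 400 bp without a k+ region (quartiles 200 and 800 bp) and 800 bp with one (400 and 1200 bp). Among k+ regions it was 600 bp without a GMP region (400 and 1400 bp) and 1600 bp with one (800 and 2600 bp). Regions of a single 200 bp bin, the smallest width in the lists, made up 28.7% of GMP regions without k+ and 14.0% of those with it. In k+ they made up 19.1% of regions without GMP and 5.95% of those with it. At the other end, regions of 2200 bp or more were 35.3% of k+ regions with a GMP partner and 9.88% of those without.

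The share without a partner went down from narrow to wide regions in both lists. Of the 725 GMP regions of 200 bp, 75.9% (72.6 to 78.9%) had no k+ region. The share was 69.2% at 400 bp, 58.3% at 600 bp and 57.01% at 800 to 1000 bp. It was 37.8% (33.6 to 42.2%) at 1200 to 2000 bp and 21.6% (14.0 to 30.8%) in the widest class, 2200 bp and up, with 102 regions. In k+, 95.7% of the 1619 regions of 200 bp had no GMP region, against 66.3% (63.5 to 68.9%) of the 1213 in the widest class. A wide region has more room to be met. When only the 200 bp bin at the midpoint was asked to lie in k+, a comparison that gives every GMP region the same room, 75.9% of the narrowest and 42.2% of the widest GMP regions were outside k+. The difference between narrow and wide GMP regions was thus smaller by this measure and kept its direction. For k+ midpoints the shares outside GMP were 95.7% and 86.2%.

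**Figure D1:**
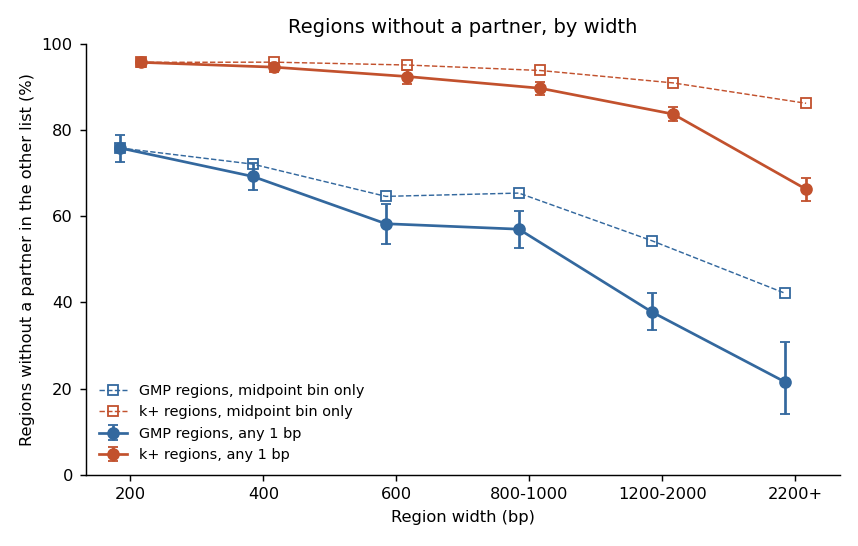
Share of regions without a partner in the other list (%, vertical axis) by region width in bp (horizontal axis), for GMP and k+ regions; filled circles use any 1 bp of overlap with exact 95% intervals, and open squares ask only the 200 bp bin at the midpoint. The share without a partner goes from 75.9 to 21.6% across GMP widths and from 95.7 to 66.3% across k+ widths, and less steeply for midpoint bins.

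Where the lists met, the k+ region was usually the wider of the pair. The 1249 GMP regions and 1159 k+ regions formed 1275 overlapping pairs, of which 1004 joined 1 GMP region with 1 k+ region and nothing else. In these 1004 pairs the median width was 800 bp for GMP and 1400 bp for k+. Over the whole lists the median was 600 bp for GMP and 800 bp for k+, and the mean 714 and 1103 bp. Wider k+ regions were thus in part a trait of the k+ list as a whole. The k+ region was wider in 691 pairs (68.8%, 65.9 to 71.7%), equal in 71 and narrower in 242 (24.1%). The k+ region held the whole GMP region and reached beyond it in 566 pairs (56.4%). The reverse nesting was seen in 162 pairs (16.1%), and in 250 pairs (24.9%) each region reached past the other on 1 side. Only 26 pairs had identical ends. Midpoints lay a median of 300 bp apart (quartiles 200 and 600 bp, maximum 5300 bp). Pairs were chosen by overlap, which by itself keeps midpoints close.

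The k+ region reached beyond the GMP region on both sides in 395 of the 1004 pairs (39.3%, 36.3 to 42.4%), on 1 side only in 421 (41.9%) and on neither in 188 (18.7%). The median overhang of k+ beyond the GMP region was 200 bp on the left and 200 bp on the right, with an upper quartile of 800 bp on both sides, so these medians showed no preferred side. The longest overhang was 10600 bp.

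The width of the k+ partner depended little on that of the GMP region until the widest class. Its median was 1200 bp beside GMP regions of 200 bp, 1400 bp at 400 bp, and 1600 bp at each of 600, 800 to 1000 and 1200 to 2000 bp. Beside the 60 GMP regions of 2200 bp or more in these pairs it was 2400 bp (quartiles 1400 and 3800 bp). The k+ region was wider in 91.3% of pairs with a GMP region of 200 bp and in 40.0% (27.6 to 53.5%) of pairs with one of 2200 bp or more, where the GMP region was wider in 58.3%. The median ratio of k+ to GMP width was 2 over all 1004 pairs and 1.2 over the 531 pairs with a GMP region of at least 800 bp. Beside GMP regions of 200 bp, the smallest width, k+ could only be equal or wider, and sorting pairs by GMP width lowers the share with k+ wider by itself, so no difference between narrow and wide GMP regions is read from it.

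**Figure D2:**
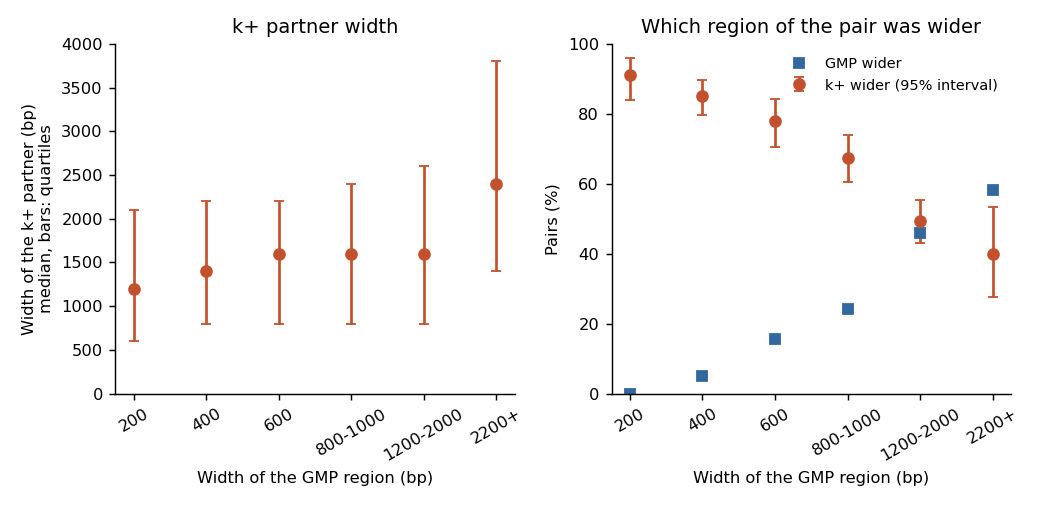
Left, width of the k+ partner in bp (vertical axis; points are medians, bars quartiles) by width of the GMP region in bp, over 1004 pairs of 1 GMP and 1 k+ region. Right, share of these pairs (%) in which k+ (circles, exact 95% interval) or GMP (squares) was the wider region; k+ was wider in 91.3% at the narrowest and 40.0% at the widest GMP class.

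Overlap was often complete for the GMP region and seldom split. Of the 1249 GMP regions with k+, 780 (62.4%, 59.7 to 65.1%) lay wholly inside k+ sequence and 174 (13.9%) were covered for less than 50% of their length. In 316 (25.3%) the shared stretch was a single 200 bp bin. Of the 1249, 175 were themselves 200 bp wide. Their overlap could only be a single bin and complete, so both counts are in part set by width. A GMP region met 2 k+ regions in 26 cases and never more. A k+ region joined 2 GMP regions in 98 cases and 3 in 9 cases. Bridging of separate GMP regions by k+ (107 of 1159) was thus more frequent than the reverse (26 of 1249). Wider regions have more room to bridge, and k+ regions had the larger median width over the whole lists.

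The widest shared regions show both arrangements. The widest GMP region of all, 7000 bp on chromosome 7 in band qA3 (29164601 to 29171600), held a k+ region of 4400 bp whole. On chromosome 8 in band qE2, a GMP region of 4000 bp (129225401 to 129229400) lay entirely inside a k+ region of 9600 bp (129223601 to 129233200). In the same band, a further k+ region of 8400 bp (129368801 to 129377200) held a GMP region of 3200 bp. The widest k+ region, 11600 bp on chromosome 1 in band qE4 (132978801 to 132990400), bridged 3 GMP regions of 3200, 200 and 200 bp. On chromosome 3 in band qG3, a k+ region of 11200 bp (131126401 to 131137600) held a single GMP region of 600 bp. Another wide GMP region, 4200 bp on chromosome 11 in band qB5 (79340401 to 79344600), shared 1000 bp with a k+ region of 3000 bp.

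Wide regions without a partner differed in what lay around them. The widest GMP region without k+ measured 4600 bp on chromosome 15 in band qD3 (74759801 to 74764400), and a k+ region lay 0.4 kb from it. The next, 4200 bp on chromosome 1 in band qE2.1 (108411001 to 108415200), had its nearest k+ region at 61 kb. One of 3200 bp on chromosome 11 in band qA2 (16902601 to 16905800) missed a k+ region by 0.2 kb, and one of 2800 bp on the same chromosome in band qB1.3 (59353801 to 59356600) lay 1234.4 kb from any. The same class thus held regions that just missed k+ and regions far from it. Among k+ regions without GMP, the widest were 8400 bp each. The first, on chromosome 19 in band qD2 (58189801 to 58198200), lay 8.4 kb from a GMP region, and the other, on chromosome 9 in band qB (59130401 to 59138800), lay 246.4 kb from one. On chromosome 6 in band qD1, a k+ region of 7800 bp (88014001 to 88021800) had its nearest GMP region at 253.6 kb.

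GMP regions without k+ often lay close to a k+ region. Of the 1915, 401 (20.9%, 19.1 to 22.8%) lay within 1 kb of one, and 121 of these touched a k+ region end to end without sharing a base. Within 10 kb the share was 41.0%, and 440 (23.0%) lay more than 100 kb away. The median distance was 19.4 kb. The k+ regions without GMP lay farther from the shorter GMP list, with a median of 68.2 kb, 20.9% within 10 kb and 42.3% beyond 100 kb. The median width of GMP regions without k+ was 400 bp in every distance class, so those next to k+ and those far away had the same median.

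The surroundings of GMP regions were dense in k+ sequence whether or not the region itself was met. At 10 to 20 kb from the midpoint, 4.80% of bins beside GMP regions with k+ and 2.62% of bins beside those without were covered by k+, against a mean of 0.415% over the autosomes. At 1 to 2 kb the values were 31.8 and 5.84%. The classes were set by overlap, and the k+ regions that overlap are themselves counted here. These k+ regions had a median width of 1600 bp, so the difference at 1 to 2 kb is in part set by the class rule. Around k+ regions with GMP, 1.13% of bins at 10 to 20 kb were covered by GMP, and around k+ regions without GMP 0.698%, against an autosomal mean of 0.0914%. Both lists lie in the part of the genome where enhancers can be called, so the autosomal mean is a low reference.

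**Figure D3:**
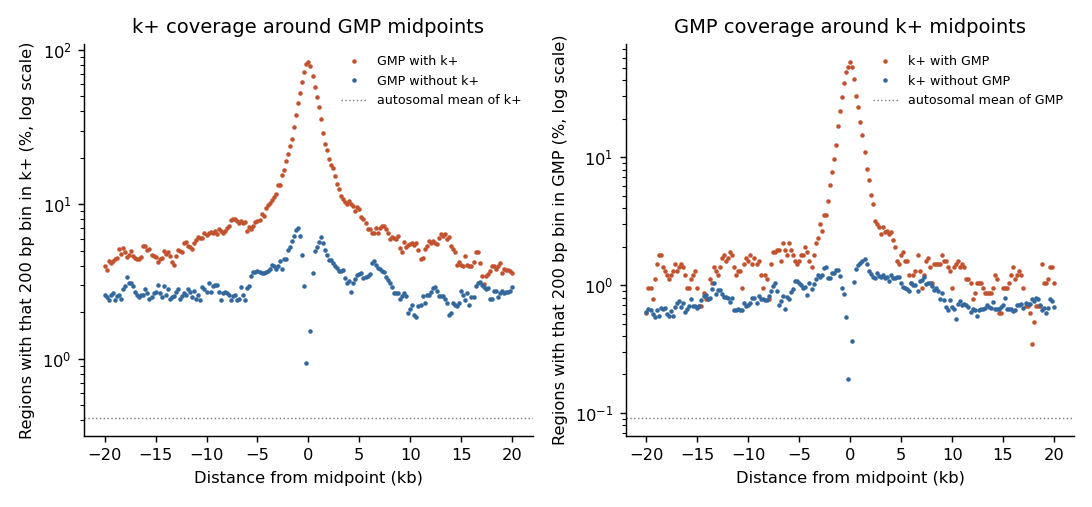
Share of regions (%, log scale) whose 200 bp bin at a given distance from the region's midpoint (kb) was covered by the other list, with the autosomal mean as a dotted line; bins at 0%, such as the midpoint of regions without a partner, are not drawn. Left, k+ coverage around GMP regions; right, GMP coverage around k+ regions; all points drawn stay above the dotted line out to 20 kb.

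GMP regions with more k+ regions around them were met more often. Counting k+ regions within 50 kb and leaving out those that overlap the GMP region itself, 76.8% (73.8 to 79.5%) of the 856 GMP regions with none nearby had no partner. The share was 61.4% with 1 nearby, 54.1% with 2 or 3, and 435 of the 870 with 4 or more had no partner (46.6 to 53.4%). Width moved along with this, with a median of 400 bp for GMP regions with none nearby and 600 bp with 4 or more. By width, the shares with none and with 4 or more nearby were 85.3 and 63.02% for GMP regions of 200 to 400 bp, 70.3 and 49.5% at 600 to 1000 bp, and 59.7 and 27.2% at 1200 bp and wider. In the widest range the order was not even, with 21.9% at 2 or 3 nearby, below the value at 4 or more. Within 10 kb the order was not even: 68.2% with none, 49.3% with 2 or 3, and 61.2% (51.1 to 70.6%) of 103 regions with 4 or more.

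Neighbouring GMP regions had the same outcome in some pairs and different ones in others, and many groups were mixed. Of 686 pairs of adjacent GMP regions within 12500 bp, both met k+ in 212 (30.9%) and neither did in 255 (37.2%). In 219 pairs (31.9%) only 1 of the 2 met k+. A single k+ region that joined 2 GMP regions (98 cases) or 3 (9 cases) makes neighbours match by itself. With only 2 outcomes, matching pairs can also be the more frequent kind without any tie between neighbours. The matching shares for regions that are not neighbours were not computed, so no likeness of neighbours is read from these pairs. Of 505 groups of 2 or more GMP regions, each no more than 12500 bp from the next, 131 (25.9%) met k+ with every region, 181 (35.8%) with none and 193 (38.2%) with some. GMP regions standing alone had no k+ partner in 64.5% (62.4 to 66.6%) of 1973 cases, against 50.8% (46.0 to 55.5%) of 447 regions in groups of 3 or more. For k+ regions the matching shares without GMP were 88.4 and 86.1%, a smaller difference.

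Joining regions of both lists that lay no more than 12500 bp apart gave 6469 loci, most of which held k+ regions alone. Loci with k+ only numbered 4063 (62.8%), loci with GMP only 943 (14.6%) and loci with both 1463 (22.6%). The mixed loci held 66.0% of GMP regions and 36.2% of k+ regions. GMP-only loci were small: 830 of 943 (88.0%) were a single region and the largest had 4. Of the k+-only loci, 2875 (70.8%) were a single region and 407 had 3 or more. In their own lists, 62.4% of GMP regions and 38.3% of k+ regions stood alone at this distance. Single regions were thus not particular to GMP-only loci. At equal numbers of regions, with the widest k+ regions kept (none below 1200 bp), 38.7% of loci were GMP-only and 38.4% k+-only, and 22.8% held both.

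Within mixed loci k+ usually covered more sequence. It did so in 1107 of 1463 (75.7%, 73.4 to 77.8%), and GMP did in 267 (18.3%). The median ratio of k+ to GMP length in a mixed locus was 2.5 (quartiles 1.125 and 4.8). Over the whole lists k+ held 4.54 times the base pairs of GMP, a ratio of totals, so more k+ sequence was not particular to mixed loci. In 470 mixed loci (32.1%) the lists never overlapped, and in 1028 (70.3%) at least 1 k+ region lay beside the GMP regions without meeting any. Of all k+ regions without GMP, 27.1% lay in such a mixed locus, and of GMP regions without k+, 43.8%.

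The locus with the most GMP regions without k+ was also that with the most k+ regions without GMP. On chromosome 2 in band qH3 (169968801 to 170050400), 5 GMP and 16 k+ regions interleaved over 81.6 kb and no base was shared. Its GMP regions were 200 to 1200 bp wide and its k+ regions 200 to 2000 bp. The closest approach was a gap of 200 bp, between a GMP region of 1200 bp ending at 170047400 and a k+ region of 600 bp starting at 170047601. The locus on chromosome 16 in band qB3 (33745001 to 33796800) held the same number of regions and the opposite arrangement. All 7 of its GMP regions met k+, among them 1 of 3000 bp (33751001 to 33754000) that held a k+ region of 2200 bp, and 2 of 600 and 400 bp that lay in a single k+ region of 2600 bp. The other 8 of its 14 k+ regions met no GMP region.

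Other loci differed in how much each list held. On chromosome 15 in band qD1 (63832001 to 63888600), 9 k+ regions covering 14600 bp lay around 1 GMP region of 400 bp, which none of them met. On chromosome 17 in band qE4, a locus from 84500201 to 84566800 held 11 k+ regions covering 15800 bp and 4 GMP regions covering 4000 bp, 2 of them met. In the same band a locus from 84373001 to 84390600 held 3 GMP regions and no k+ region. The GMP-only locus with the most regions, 4 covering 2800 bp, lay on chromosome 12 in band qE (106239401 to 106251400). The k+-only locus with the most regions, 9 covering 8000 bp, lay on chromosome 10 in band qB5.1 (66549801 to 66579400). On chromosome 3 in band qF1 (90462601 to 90505000), 8 k+ regions covering 13200 bp had no GMP region among them. On chromosome 8 in band qC3 (86716001 to 86746600) the balance went the other way by number, with 7 GMP and 5 k+ regions, though k+ covered 7800 bp and GMP 5200 bp.

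**Figure D4:**
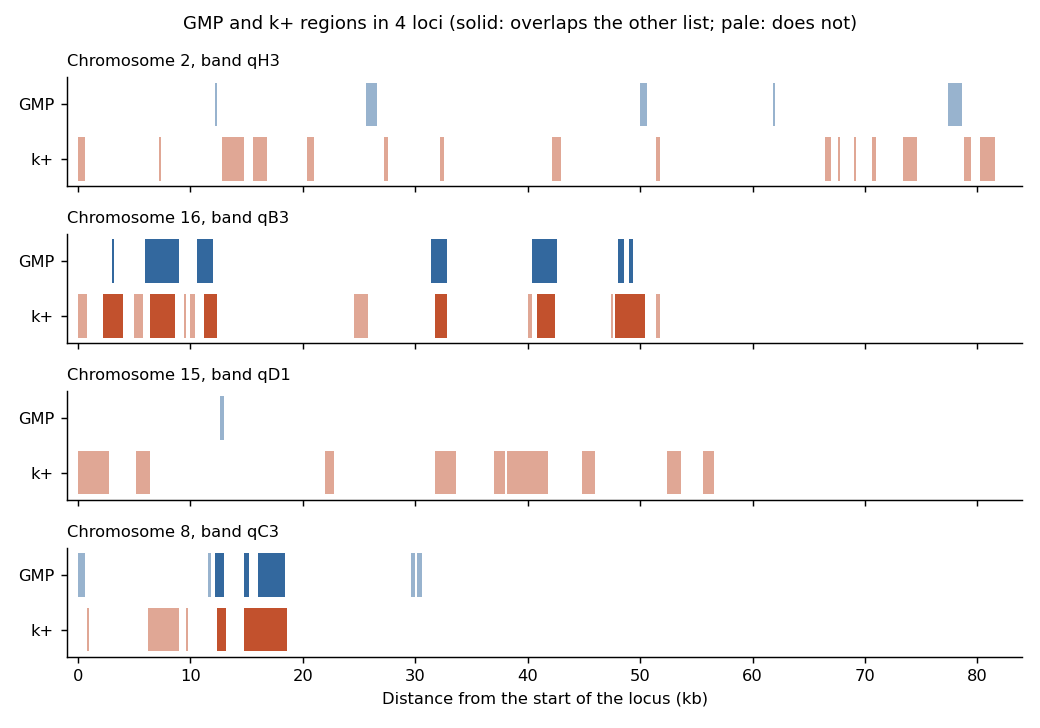
Positions of GMP (upper row) and k+ (lower row) regions in 4 loci, in kb from the start of each locus; box widths are region widths, solid boxes overlap the other list and pale boxes do not. On chromosome 2 the 5 GMP and 16 k+ regions interleave without overlap, while on chromosome 16 all 7 GMP regions meet k+.

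At the scale of megabases most windows with a region of 1 list also held a region of the other. Over all 2482 windows of 1 Mb, 1094 held a GMP region and 1483 a k+ region. Of the 1094, 93.5% also held a k+ region, and of the 1483, 69.0% held a GMP region. Counts per window went together across the 2482 windows (Pearson r 0.73, Spearman rho 0.74). The windows share gene content and mappability, so these values are a description. In 71 windows there were GMP regions and no k+ region, and in 460 there were k+ regions and no GMP region. These counts of 1 Mb windows are not of the same kind as the 60.5% of GMP regions without a partner at 1 bp.

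Some windows stood apart. On chromosome 13 in band qA2, from 20000001 to 21000000, 21 k+ regions lay with no GMP region. On chromosome 12 in band qF2, from 116000001 to 117000000, there were 24 k+ regions and 1 GMP region. Windows with 5 or more k+ regions and no GMP region numbered 99. The reverse, 5 or more GMP regions and no k+ region, was seen in 1 window, on chromosome 14 in band qA3 from 20000001 to 21000000, where 5 GMP regions lay. The k+ list holds 2.94 times as many regions, so the same cutoff of 5 is reached more easily in k+. The counts of 99 and 1 are thus in part set by list length. The window in which the GMP share of its list most exceeded that of k+ was on chromosome 8, from 86000001 to 87000000, with 11 GMP and 7 k+ regions, and it holds the locus in band qC3 described above.

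The share of GMP regions without k+ ranged more widely between autosomes, over fewer regions each, than that of k+ regions without GMP. It was lowest on chromosome 9, at 51.3% (43.0 to 59.6%) of 150 regions, and highest on chromosome 18, at 73.9% (63.7 to 82.5%) of 92, followed by chromosome 13, at 72.3% (64.8 to 78.9%) of 166. These were the 3 of 19 autosomes whose interval left out the autosomal 60.5%. The 19 intervals were not adjusted for their number and treat neighbouring regions as independent. Whether these 3 autosomes differ beyond chance was not tested. With both lists cut to regions of at least 800 bp (1159 GMP and 4953 k+ regions), the autosomal share was 55.0%. A GMP region that met only a narrower k+ region then counted as without one. On chromosome 9 the share was 48.4% (35.5 to 61.4%), with an interval that held the autosomal share. On chromosome 13 it was 70.1% (57.7 to 80.7%), with an interval that did not. These 2 autosomes were picked after the data had been seen, and chromosome 18 was not examined with this cut. No autosome's interval for k+ regions without GMP left out the 87.5% of the whole. Both lists were densest on chromosome 19, with 1.99 GMP and 5.82 k+ regions per Mb, and no autosome had GMP and k+ shares of their lists with separate intervals.

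**Figure D5:**
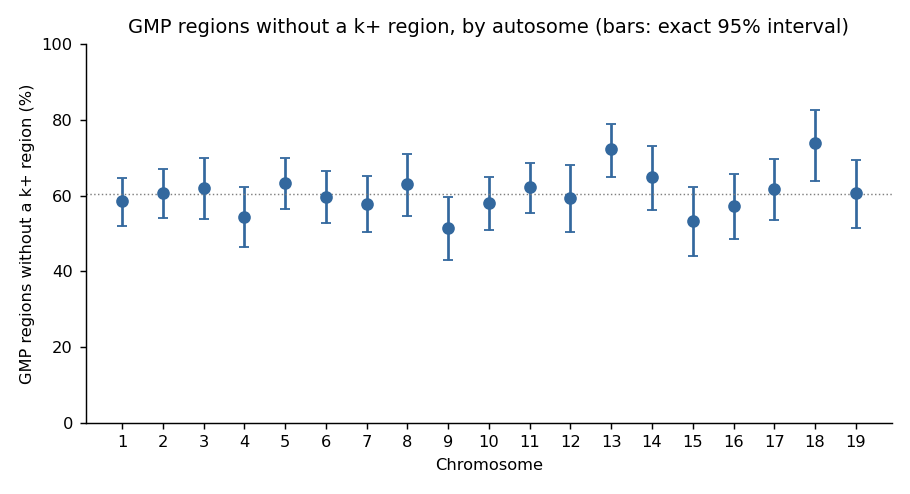
Share of GMP regions without a k+ region (%, vertical axis) on each autosome, with exact 95% intervals; the dotted line is the share over all 19 autosomes, 60.5%. Chromosomes 13 and 18 lie above the line and chromosome 9 below it, with intervals that do not reach it. The intervals are not adjusted for the number of autosomes.

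The authors' deposited lists of lost, maintained and gained regions divide the regions without a partner in part differently from k+ overlap alone. All 1249 GMP regions with k+ and all 1159 k+ regions with GMP overlapped the maintained list. Of the 1915 GMP regions without k+, 1353 (70.7%) were in the authors' lost list with identical ends, and 562 (29.3%) overlapped the maintained list, so they are without a k+ region but not lost in that sense. The median width was 400 bp for the 1353 and 600 bp (interval 400 to 600 bp) for the 562. Of the 8134 k+ regions without GMP, 7857 (96.6%) overlapped the gained list and 277 did not.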

How the data were processed

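GMP and LSC chromatin was profiled by ChIP-seq, 1 library per mark. The authors deposited region lists of 3 columns (chromosome, start, end) that give positions in bp on mm9, with no score, count or other measure. The submitters' processing notes name BWA, Picard, MACS2, HOMER and deepTools; the sources used here give no versions, settings or enhancer rule. All ends were multiples of 200 bp and none passed its mm9 chromosome. Chromosome lengths came from GenomeInfoDb 1.38.1 and bands from circlize 0.4.16 (R 4.3.3). Positions are printed counted from 1.

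Overlaps were computed with pandas 2.3.3 and NumPy 2.4.6, intervals with SciPy 1.17.1 and figures with matplotlib 3.10.9, all under Python 3.11.15; overlaps were checked against bedtools 2.31.1 and tested on simulated data. The chromosome 11 stretch left out held 22 GMP and 2 k+ regions; 146 GMP and 109 k+ regions lay off the autosomes. With 1 list per population no test between conditions was made. Named regions were the 5 widest of each class, and loci and 1 Mb windows the 5 most extreme, of which those described are a part; loci and windows of 1 list alone were ranked after the data had been seen. Members and comparisons were chosen with earlier results of these data known. Lists of genes and motifs set for use with an mm9 annotation were not used here.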

Additional observations from a re-analysis of the deposited data

How the results depend on the processing

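The lists carry no score and no replicate, so a calling threshold could not be changed and leaving out a replicate was not applicable. No paired analysis was possible because GMP and k+ have a single list each. Any start within 100 kb was not run, since an mm9 annotation was not used here. Of 56 alternative values, 25 stayed within the 95% interval of the reported value and 31 moved outside it. Among the alternatives, 8 were chosen after seeing the data. For shares without a partner and for distances, the setting of at least 800 bp cut both lists, to 1159 GMP and 4953 k+ regions. A region that met only a narrower one then counted as without a partner. The share of GMP regions without k+ was 66.0% when 50% of the GMP region had to be covered, 88.1% with 50% of both regions shared, 47.9% with k+ within 1 kb counted, 55.0% among regions of at least 800 bp, 73.1% with the widest regions at equal list sizes and 62.2% with all chromosomes and positions. The share of k+ regions without GMP was 94.3%, 95.9%, 82.1%, 89.7% and 76.6% under the first 5 of these, and 86.04% with regions within 1 kb joined. With 50% of both regions shared the median width was 1000 bp for GMP with k+ and 1200 bp for k+ with GMP; joining gave 1800 bp for the latter. GMP regions without k+ lay within 10 kb of k+ in 38.4% with all chromosomes and in 26.7% among regions of at least 800 bp, where k+ regions without GMP were near GMP in 9.41%. Stitching at 5 kb gave 18.8% mixed and 66.6% k+-only loci, and at 25 kb 27.1 and 58.8%; equal sizes gave 38.7% GMP-only and 38.4% k+-only loci. In 5 Mb windows, 90.6% of those with k+ held GMP and 99.1% of those with GMP held k+. The midpoint bin left 42.2% of GMP regions of 2200 bp or more outside k+. With all chromosomes, 36.0% of GMP sequence lay in k+. The median width ratio of pairs was 1.2 for GMP regions of at least 800 bp. Within 10 kb, 68.2% of GMP regions with no k+ nearby and 61.2% with 4 or more were without a partner. The cause of these shifts was not tested beyond the change of rule or of regions that each setting makes; how far calling depth set the lists was not tested.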

Other observations

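Regions that just missed each other were frequent at the shortest gaps. Of GMP regions without k+, 121 touched a k+ region, 98 had a gap of 200 bp, 64 a gap of 400 bp, 49 of 600 bp, 39 of 800 bp and 30 of 1000 bp. Whether such neighbours are parts of 1 enhancer was not tested.

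The sex chromosomes were outside the comparison. On X, 97 of 105 GMP regions (92.4%, 85.5 to 96.7%) had no k+ region, and 101 of 109 k+ regions (92.7%) had no GMP region. On Y the GMP list held 41 regions and the k+ list 0, so no overlap was possible there.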
